A study of Mus musculus with 9 samples.

Results

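The data describe 9 genes of the relay from the receptor for parathyroid hormone-related protein (PTHrP) to the class IIa histone deacetylases and Mef2 factors, in 3 layers of the mouse growth plate. They are Pth1r, Gnas, Sik3, Hdac4, Hdac5, Mef2a, Mef2c, Mef2d and Zfp521, read by every probe set annotated only to 1 of them, which gave 9 of 18193 genes named on the Affymetrix mouse genome array and 30 of its 45037 non-control probe sets. Gnas was read by 5 probe sets, Hdac4 by 3, Mef2a by 6, Mef2c by 5, Mef2d by 3, Sik3 by 4, Zfp521 by 2, and Pth1r and Hdac5 by 1 each. The genes were listed by their place in the pathway. The round, flat and hypertrophic cell layers came from the proximal tibia of newborn (postnatal day 0) wild-type Black Swiss mice. All 3 layers share that strain, genotype and age, and the labels name no treatment. Each layer was cut by hand from unfixed frozen sections without a sort, and a sample pooled the 18 to 20 tibiae of 1 litter. The 9 arrays were taken as 3 layers from each of 3 litters (n = 3 litters per layer). That equal replicate numbers mark the same litter across layers was inferred.

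PTHrP reaches growth plate chondrocytes from the cells near the joint and holds them in the proliferating state. Its receptor Pth1r couples to the stimulatory G protein alpha subunit encoded by Gnas, which raises cyclic AMP and activates protein kinase A. Salt-inducible kinases such as Sik3 phosphorylate class IIa deacetylases, which 14-3-3 proteins then hold in the cytoplasm, and protein kinase A signalling reverses this. Nuclear Hdac4 and Hdac5 bind Mef2 transcription factors and repress the genes by which chondrocytes enlarge, among them Col10a1. Zfp521 is a zinc finger protein that acts downstream of PTHrP and restrains Runx2. These steps run largely through phosphorylation and movement of proteins, which an array of messenger RNA does not read.

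The promoters show where the recognition sequence of the Mef2 factors stands in genes of the relay itself. RefSeq windows (GRCm38.p6) of 250 bases before to 50 after a transcription start were read for 8 of the 9 genes, 15 windows in all, with Zfp521 not analysed here. Both strands were searched for the MEF2 site by name, for the cyclic AMP response element TGACGTCA and its half-site TGACG, which lies within it, and for the Runx core TGTGGT. A MEF2 match occurred in 3 of the 15 windows, against 3.19% of all 32851 windows searched, some of which overlap. They are shown 5′ to 3′ along the gene with the match in capitals. It starts 200 bases before the start in Pth1r (1 of its 3 windows, minus strand of chromosome 9, chr9:110742561-110742860), 20 bases before it in Hdac5 (minus strand of chromosome 11, chr11:102230123-102230422) and 2 bases before it in Mef2a (minus strand of chromosome 7, chr7:67372809-67373108).
Pth1r: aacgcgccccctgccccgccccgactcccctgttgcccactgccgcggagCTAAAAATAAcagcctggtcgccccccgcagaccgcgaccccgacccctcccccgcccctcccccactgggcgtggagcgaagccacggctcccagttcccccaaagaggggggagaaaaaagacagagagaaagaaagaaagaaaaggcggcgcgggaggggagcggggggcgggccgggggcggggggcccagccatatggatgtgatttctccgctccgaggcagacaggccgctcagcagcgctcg
Hdac5: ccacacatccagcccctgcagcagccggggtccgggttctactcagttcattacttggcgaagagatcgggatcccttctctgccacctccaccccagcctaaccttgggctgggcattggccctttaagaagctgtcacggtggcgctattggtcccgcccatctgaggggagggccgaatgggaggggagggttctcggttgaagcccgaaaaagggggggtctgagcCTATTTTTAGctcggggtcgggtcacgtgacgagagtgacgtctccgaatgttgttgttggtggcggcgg
Mef2a: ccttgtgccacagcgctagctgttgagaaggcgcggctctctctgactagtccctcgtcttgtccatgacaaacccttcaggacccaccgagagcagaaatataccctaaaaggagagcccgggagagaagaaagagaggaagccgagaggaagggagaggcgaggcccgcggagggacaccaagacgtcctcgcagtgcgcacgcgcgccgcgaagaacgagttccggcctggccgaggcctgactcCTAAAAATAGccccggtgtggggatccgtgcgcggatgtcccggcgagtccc

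The half-site TGACG was in 7 of the 15 windows, against 20.8% of all windows. These were 3 of Gnas, of which a pair overlaps, and 1 each of Pth1r, Hdac4, Hdac5 and Sik3. Hdac4 and Sik3 had 3 copies each, and the Hdac4 window (minus strand of chromosome 1, chr1:92180292-92180591) is shown with its copies in capitals.
Hdac4: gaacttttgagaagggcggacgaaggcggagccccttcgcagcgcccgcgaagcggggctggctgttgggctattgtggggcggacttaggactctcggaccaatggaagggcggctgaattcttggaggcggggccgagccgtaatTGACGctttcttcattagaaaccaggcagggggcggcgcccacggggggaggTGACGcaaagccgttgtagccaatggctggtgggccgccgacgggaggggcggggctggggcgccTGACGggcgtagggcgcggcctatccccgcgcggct
The whole element TGACGTCA and the Runx core were in 0 of the 15 windows, against 1.79% and 16.8% of all windows. A match is a description of letters and not evidence of binding. The 3 windows of Mef2c held no match to any of the motifs.

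The layers' labels were set against marker lists, each gene read by its probe set with the highest mean. The summed signal of 7 round and periarticular markers ran over 32145 to 45370 on round, 1765 to 2881 on flat and 793 to 1118 on hypertrophic arrays. That of 6 hypertrophic markers was 6966 to 11683, 31424 to 57085 and 105476 to 121954. That of 8 flat columnar markers was not highest in the flat layer, with 61077 to 74715 on round, 37897 to 58356 on flat and 33756 to 40692 on hypertrophic arrays. Col2a1 was the largest part of this sum, with means of 32059, 21585 and 18514 in the same order. Matn1, Matn3 and Pcp4 had their highest mean in the flat layer. Col2a1, Acan, Comp and Mki67 had theirs in the round and Fgfr3 in the hypertrophic layer. Skeletal muscle markers were high throughout and summed highest on the flat array of litter 3 (602484). The round array of litter 1 stood apart in RNA quality, since its 3′/5′ signal ratio was 4.25 for actin (the remaining arrays had 1.45 to 2.06) and 2.59 for Gapdh (0.922 to 1.28). Median signals were 123 to 152. Precision is limited by the small number of arrays.

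Values below are MAS5 signals, a linear intensity per probe set, in litters 1 to 3. Differences are log2 differences with their standard error from limma with litter as a block, and a probe set past the threshold has an adjusted p (Benjamini-Hochberg over all tested probe sets) under 0.05. Rose and fell refer only to these. Of the 30 probe sets, 26 had a mean in the upper part of all probe sets, split at the median, and were tested, while 1 each of Gnas, Hdac4, Mef2a and Sik3 lay below it. Between the flat and round layers 8 of the 26 were past the threshold (6 higher, 2 lower), where 12.5% of all 22518 tested probe sets were (6.2% higher, 6.27% lower). Between the hypertrophic and flat layers 8 were (2 higher, 6 lower), against 7.45% of all (3.92% higher, 3.53% lower). Between the hypertrophic and round layers 16 were (7 higher, 9 lower), against 20.4% (9.97% higher, 10.5% lower). Probe sets of a gene are not independent, and the first 8 include 5 of Mef2c. In whole-layer samples fewer cells of a type and less RNA per cell cannot be told apart.

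**Figure D1:**
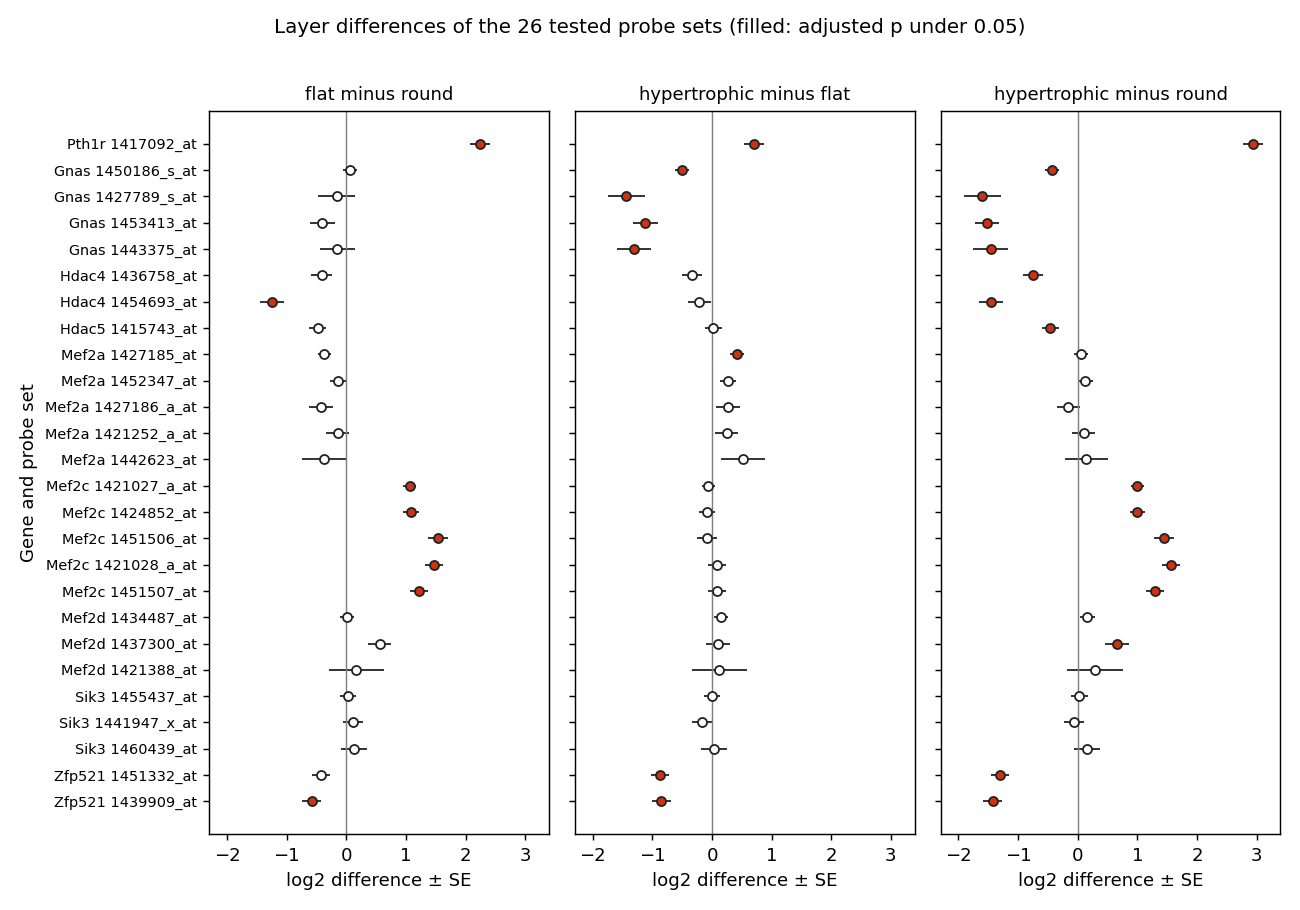
Log2 differences (± SE, n = 3 litters) of the 26 tested probe sets between the flat and round, hypertrophic and flat, and hypertrophic and round layers, with filled points for an adjusted p under 0.05. Pth1r and the 5 Mef2c probe sets lie to the right between the flat and round layers, and the 4 Gnas and 2 Zfp521 probe sets lie to the left between the hypertrophic and flat layers.

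The receptor had the largest log2 difference of the 26 tested probe sets. Pth1r (chr9:110722085-110747145 in GRCm38.p6, as for all gene positions given here) had signals of 1685, 1733 and 1316 in the round layer, 9328, 10134 and 4451 in the flat layer and 12953, 12988 and 10804 in the hypertrophic layer. The layers did not overlap, and the flat array of litter 3 was the lowest of its layer. Non-overlap of 2 layers held for 22.5% of all tested probe sets between flat and round, 20.2% between hypertrophic and flat and 33.4% between hypertrophic and round. The means were 1578 ± 228, 7971 ± 3075 and 12248 ± 1250 (SD, n = 3). Pth1r rose by 2.24 ± 0.17 in the flat over the round layer, 4.72-fold (limma, adjusted p = 1.05e-05). The hypertrophic layer exceeded the flat layer by 0.70 ± 0.17, 1.63-fold (limma, adjusted p = 0.0251), and the round layer by 2.94 ± 0.17, 7.68-fold (limma, adjusted p = 2.69e-07).

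The difference between hypertrophic and flat layers was past the threshold in 11 of 18 alternatives, with adjusted p between 0.00904 and 0.217 over them. The call was lost without the block for litter (limma, adjusted p = 0.217) and without the mean-variance trend (0.111). It was also lost without the flat array of litter 1 (log2 0.81), the flat array of litter 3 (0.43, adjusted p = 0.0957) and each of the hypertrophic arrays of litters 1 to 3 (0.76, 0.80 and 0.54). The other Pth1r differences kept their call in all 18 alternatives.

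The genes closest to Pth1r in pattern were named by their correlation with it. Over the 9 arrays, which share 3 layers and 3 litters, the highest Pearson correlations of log2 values belonged to Ifitm5 (0.994), which encodes a bone-restricted membrane protein, Alpl (0.992), the alkaline phosphatase of mineralisation, Sp7 (0.991), a bone-lineage transcription factor, the glypican Gpc1 (0.991) and the channel protein Panx3 (0.989). These describe the highest values among the other tested genes. Alpl and Panx3 are on the list of hypertrophic chondrocyte markers, and Ifitm5 and Sp7 on that of osteoblast markers. Of 5 tested hypertrophic chondrocyte markers, 5 were higher in each of the 3 contrasts. Pth1r is also made by osteoblasts. Of 5 tested osteoblast markers, 4 were higher for flat over round and 3 for hypertrophic over flat. Summed over 6 genes they reached 63725 to 89309 on round, 67259 to 108226 on flat and 105326 to 122919 on hypertrophic arrays. Most of this sum was Col1a1, past the threshold in no contrast, with means of 72528, 77576 and 68816 in the order round, flat, hypertrophic. Sp7, Dmp1, Ifitm5 and Phex were higher in the hypertrophic than in the round layer, by 3.33, 4.78, 4.85 and 3.49. The lowest of the 6 genes, Mepe, had layer means of 44.9, 31.5 and 439 in the same order. The part of osteoblasts or of hypertrophic chondrocytes in the Pth1r gradient was not tested.

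**Figure D2:**
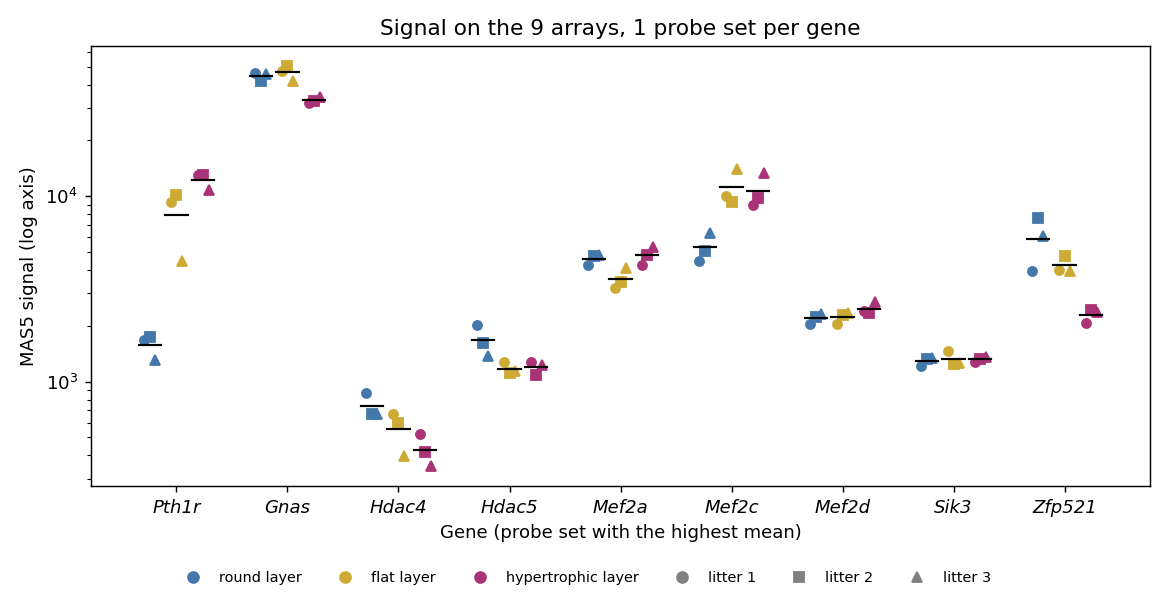
MAS5 signal (log axis) on each of the 9 arrays for the probe set with the highest mean of each gene, by layer (colour) and litter (symbol), with a bar at the layer mean. Pth1r is lowest on the 3 round arrays, Mef2c is higher on all flat and hypertrophic arrays than on the round ones, and Gnas, Hdac4 and Zfp521 are lowest in the hypertrophic layer.

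Gnas (chr2:174284320-174346744), the G protein subunit that couples the receptor to cyclic AMP, went the other way from Pth1r in the hypertrophic layer. The locus makes several transcripts from several promoters, some of them imprinted, and which of them each probe set reads is not given in the annotation used here. The brightest probe set (1450186_s_at) had 46467, 41962 and 45395 in the round, 47648, 50455 and 42017 in the flat and 31923, 32717 and 34465 in the hypertrophic layer. All 3 hypertrophic arrays lay below the other 6. It fell by 0.50 ± 0.12 in the hypertrophic layer against the flat layer (limma, adjusted p = 0.0237) and fell by 0.43 ± 0.12 against the round layer (adjusted p = 0.0211).

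The dimmer Gnas probe sets fell further. Probe set 1453413_at had 1063, 1220.0 and 1314 in the round, 1195, 829 and 729.6 in the flat and 561, 339 and 334 in the hypertrophic layer. The hypertrophic arrays were again below all others, and the difference was -1.12 ± 0.21 from the flat layer (limma, adjusted p = 0.00623) and -1.52 ± 0.21 from the round layer (adjusted p = 0.000259). Probe set 1427789_s_at had 699, 3253 and 2187 in the round, 1510.5, 1609.6 and 1464 in the flat and 469, 645 and 541 in the hypertrophic layer. Its spread was widest among the round arrays, with the array of litter 1, which has the high 3′/5′ ratios, the lowest. The hypertrophic layer differed by -1.44 ± 0.31 from the flat and by -1.60 ± 0.31 from the round layer. The fourth, 1443375_at, had 430.4, 355 and 378 in the round, 418, 382 and 259 in the flat and 176, 64.2 and 159.6 in the hypertrophic layer, again without overlap (-1.31 ± 0.29 from the flat and -1.46 ± 0.29 from the round layer).

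All 4 tested Gnas probe sets were lower in the hypertrophic than in either other layer, and 0 of 4 were past the threshold in the flat against the round layer (limma, adjusted p 0.246 to 0.798, also 0 of 4 at an unadjusted p under 0.05). The fifth, 1421740_at, was not tested, with signals of 4.17 to 68.2 over the 9 arrays. The 3 falls from the round layer measured by the dimmer probe sets kept their call in all 17 alternatives that tested them. The falls from the flat layer lost their call more often. Without the flat array of litter 1 their adjusted p (limma) was 0.135, 0.102, 0.0536 and 0.0728 for 1450186_s_at, 1427789_s_at, 1453413_at and 1443375_at. Without the hypertrophic array of litter 2 it was 0.14, 0.0937, 0.0505 and 0.0889. For 1450186_s_at the call against the flat layer was also lost without flat 2 (0.106) or hypertrophic 1 (0.121) or 3 (0.0783). It was lost too with no litter block (0.0526), no mean-variance trend (0.122) or no filter on low values (0.132). This call against the flat layer held in 10 of 18 alternatives. For 1427789_s_at it was also lost without hypertrophic 3 (0.0878), with no block (0.0885) or no trend (0.0734), and held in 12 of 17. For 1443375_at it was also lost without flat 2 (0.0924) and held in 14 of 17, and for 1453413_at it held in 15 of 17. The fall of 1450186_s_at from the round layer was lost without round 3 (0.1) or hypertrophic 1, 2 or 3 (0.0986, 0.114 and 0.0556), with no filter (0.118) or no trend (0.0929), and held in 12 of 18.

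Markers of some other cells rose, and those of others fell, in the layer where Gnas was lowest. All 6 tested osteoclast markers were higher in the hypertrophic layer over the flat and over the round layer, and the sum over 7 genes was 2397 to 3418 on round, 5565 to 9895 on flat and 29389 to 41371 on hypertrophic arrays. Of 8 endothelial markers 5 were higher for hypertrophic over flat and 2 for hypertrophic over round. For hypertrophic over flat, 16 of 20 skeletal muscle markers were lower and 0 higher. Perichondrium, fibroblast and tendon markers were lower in 4 of 7 and higher in 0. Of 5 macrophage markers 2 were higher and 1 lower. The part of these cells in the Gnas differences was not tested.

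Without the round array of litter 1, the flat layer was also below the round layer in 1427789_s_at and 1453413_at past the threshold, with log2 differences of -0.74 and -0.70 (limma, adjusted p = 0.0106 and 0.0175).

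Sik3 (chr9:46012820-46224194), the kinase that marks class IIa deacetylases for retention in the cytoplasm, was past the threshold in no contrast. Its brightest probe set (1455437_at) had 1209.8, 1328 and 1349 in the round, 1462, 1239 and 1269 in the flat and 1285, 1318 and 1356 in the hypertrophic layer. The layers overlapped in every pair. Across its 3 tested probe sets the log2 differences lay between -0.17 and 0.16 (limma, adjusted p 0.629 to 0.999). For the brightest, the differences were 0.03 ± 0.14 (flat over round), -0.00 ± 0.14 (hypertrophic over flat) and 0.03 ± 0.14 (hypertrophic over round), and their signs turned under other scalings and samples. The remaining Sik3 probe set, 1446136_at, lay between 4.32 and 106 and was not tested.

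Hdac4 (chr1:91928779-92195702), like Hdac5, Hdac7 and Hdac9 of the same class IIa, had its highest mean in the round layer. Probe set 1454693_at had 1167, 734 and 767 in the round, 478, 386 and 234 in the flat and 447, 246 and 244 in the hypertrophic layer. Every round array lay above the other 6. It fell by 1.25 ± 0.20 in the flat against the round layer, 2.37-fold (limma, adjusted p = 0.00136). Hypertrophic minus round was -1.46 ± 0.20, a 2.75-fold fall (adjusted p = 0.000243). The hypertrophic and flat layers overlapped, with a difference of -0.21 ± 0.20 (adjusted p = 0.616).

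The other tested Hdac4 probe set, 1436758_at, had the higher mean and a smaller slope. Its signals were 866, 673 and 670.0 in the round, 672, 599 and 396 in the flat and 522, 417 and 349 in the hypertrophic layer. In each of the 3 litters the order was round, flat, hypertrophic. It fell by 0.75 ± 0.17 in the hypertrophic against the round layer (limma, adjusted p = 0.00923). The intermediate steps were -0.41 ± 0.17 for flat minus round (adjusted p = 0.154) and -0.34 ± 0.17 for hypertrophic minus flat (adjusted p = 0.314). The fall in the hypertrophic against the round layer had adjusted p = 0.056 without the litter block, 0.0564 without the round array of litter 3 and 0.0502 without the hypertrophic array of litter 2. The third probe set, 1447566_at, ranged from 28.4 to 271 and was not tested.

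Hdac5 (chr11:102195747-102230172), the relative of Hdac4 in the same class, had 2014, 1625 and 1374 in the round, 1278, 1108 and 1147 in the flat and 1277, 1084 and 1231 in the hypertrophic layer. All round arrays were above the other 6, and the flat and hypertrophic arrays overlapped. The hypertrophic layer was lower than the round layer by -0.46 ± 0.15 (limma, adjusted p = 0.0435), while flat minus round was -0.48 ± 0.15 with adjusted p = 0.0504, just outside the threshold. The first of these calls was past the threshold in 6 of 18 alternatives, with adjusted p up to 0.181. It was lost with arrays centred on their medians (0.0797), no litter block (0.114), no mean-variance trend (0.0884) or no filter on low values (0.057). It was also lost without round 1 or 2 (0.115 and 0.168) or flat 1 or 2 (0.0633 and 0.0504). The same held without hypertrophic 1, 2 or 3 (0.174, 0.181 and 0.0621), or without round 1 and flat 3 together (0.096). Flat minus round was past it without the round array of litter 3 (-0.61, adjusted p = 0.0355), with the pseudocount at the 40th percentile (0.048) and with 1 probe set a gene (0.0342). The log2 ratio of Hdac4 to Hdac5 was -1.15 ± 0.12 in round, -1.08 ± 0.34 in flat and -1.44 ± 0.27 in hypertrophic layers (SD, n = 3), with an exact permutation p of 0.222 for a difference among layers.

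The patterns closest to that of Hdac4 (1436758_at) over the 9 arrays were those of Man2c1 (Pearson's r 0.978), a mannosidase, Nfatc4 (0.974), a calcium-regulated transcription factor, the ligand Wnt9a (0.971), the small GTPase Rhob (0.971) and Snapc4 (0.965). All 5 had their highest mean signal in the round and their lowest in the hypertrophic layer.

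**Figure D3:**
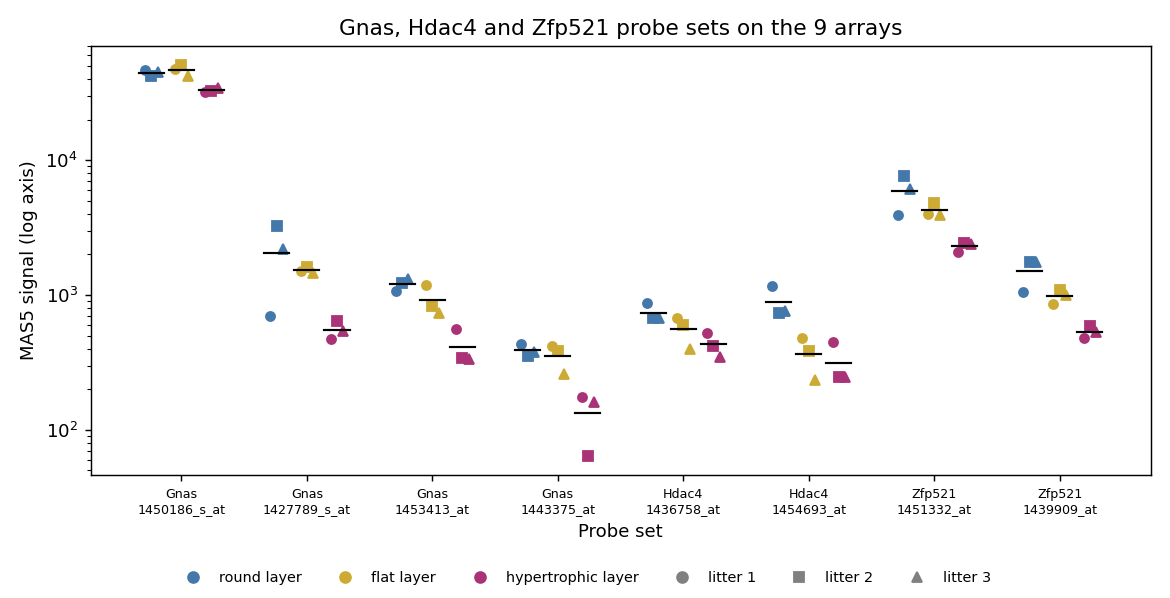
MAS5 signal (log axis) of the tested Gnas, Hdac4 and Zfp521 probe sets on the 9 arrays, by layer (colour) and litter (symbol), with a bar at the layer mean. All 4 Gnas and both Zfp521 probe sets are lowest on the 3 hypertrophic arrays, and the Hdac4 probe set 1454693_at is highest on the 3 round arrays.

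Among the Mef2 factors, Mef2c (chr13:83504017-83667079) stood higher in the flat and hypertrophic layers than in the round layer on all 5 of its probe sets. Mef2c is the member of the family needed for chondrocyte enlargement in mice. Its brightest probe set (1421027_a_at) had 4478, 5071 and 6338 in the round, 10045, 9306 and 14106 in the flat and 8953, 9769 and 13297 in the hypertrophic layer. Neither later layer overlapped with the round one, and within each layer litter 3 was the highest. The difference was 1.06 ± 0.11 for flat minus round, 2.09-fold (limma, adjusted p = 0.000104), and 1.001 ± 0.11 for hypertrophic minus round, 2.002-fold (adjusted p = 6.11e-05).

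The other 4 Mef2c probe sets were likewise higher in both later layers. Probe set 1451506_at, with 1145, 1792 and 1752 in the round, 4913, 3833 and 4774 in the flat and 3939, 4348 and 4348 in the hypertrophic layer, had the largest step between flat and round, 1.53 ± 0.17. Over the 5 flat minus round was 1.06 to 1.53 (limma, adjusted p 9.21e-05 to 0.000254) and hypertrophic minus round 1.001 to 1.56 (2.12e-05 to 0.000202). Each moved the same way in 3 of 3 litters, and each kept its call in every alternative that tested it. Between the hypertrophic and flat layers 0 of 5 were past the threshold, with differences of -0.09 to 0.09 (limma, adjusted p 0.786 to 0.829, and 0 at an unadjusted p under 0.05).

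Mef2c is also a gene of skeletal muscle, and muscle markers moved with it between the flat and round layers. Of 20 muscle markers 19 were higher and 0 lower for flat over round, and their summed signal was 368031 to 602484 on flat and 156513 to 256234 on round arrays. Between the hypertrophic and flat layers 0 of 20 were higher and 16 lower, where 0 of 5 Mef2c probe sets were past the threshold. Between the hypertrophic and round layers 2 of 20 were higher, and the sums overlapped, at 155168 to 369300.0 in the hypertrophic and 156513 to 256234 in the round layer. By litter the muscle sums were 155168, 229612 and 369300.0 in the hypertrophic layer, against 214747, 156513 and 256234 in the round layer. The hypertrophic sum was lower than the round sum in litter 1, whose round array has the high 3′/5′ ratios, and higher in litters 2 and 3. Mef2c was higher in all 3 litters. Within each layer litter 3 had the highest muscle sum (256234, 602484 and 369300.0 in round, flat and hypertrophic layers). Litter 3 was also the highest of each layer for Mef2c on 1421027_a_at, but not of the round and flat layers on 1451506_at. Flat minus round for Mef2c (1421027_a_at) without the flat array of litter 3 was 1.03. Endothelial cells, which also use Mef2c, were followed by 8 markers that summed to 11446 to 13556 on round, 9204 to 10529 on flat and 14580.1 to 15557 on hypertrophic arrays. The part of muscle in the Mef2c differences was not tested.

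**Figure D4:**
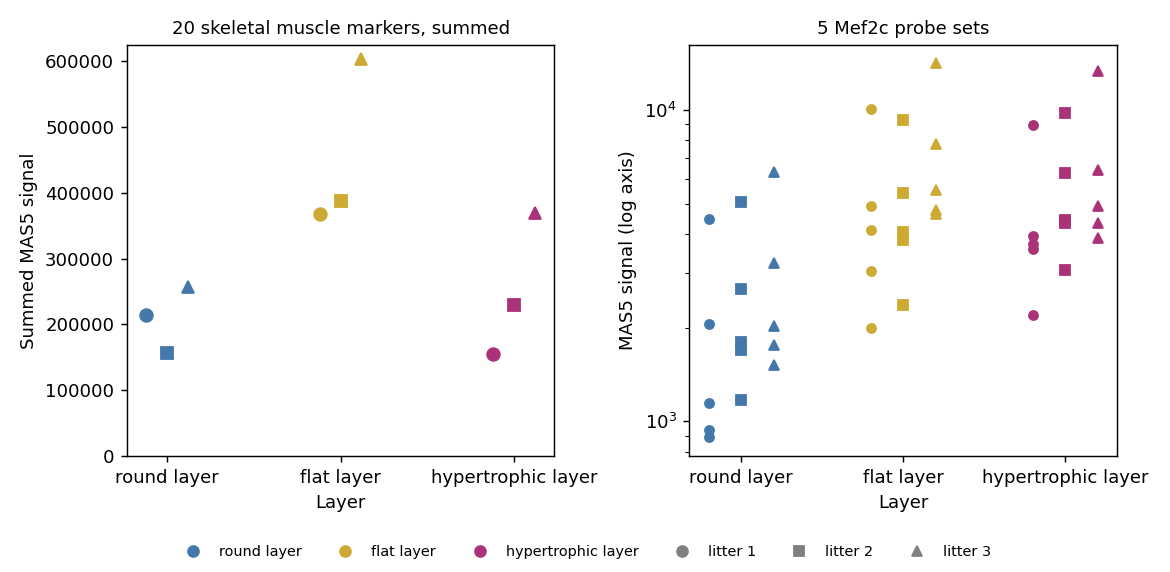
Left, summed MAS5 signal of 20 skeletal muscle markers on each array, with the axis from 0. Right, MAS5 signal (log axis) of the 5 Mef2c probe sets on the same arrays, by layer (colour) and litter (symbol). The muscle sum is highest on the 3 flat arrays but for an overlap with the hypertrophic array of litter 3 (369300.0), and the 5 Mef2c probe sets are lowest on the 3 round arrays.

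The genes nearest to Mef2c (1421027_a_at) in pattern were Atp5g1 (Pearson's r 0.978), a subunit of the mitochondrial ATP synthase, the transporter Abca8a (0.975), Ramp1 (0.973), a partner protein of calcitonin-family receptors, Cdh15 (0.969), the muscle cadherin, and Basp1 (0.969), over the same 9 arrays.

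Mef2a (chr7:67231163-67376456) had its lowest mean signal in the flat layer. Its brightest probe set (1427185_at) had 4260.5, 4774 and 4794 in the round, 3214, 3442 and 4097 in the flat and 4268, 4818 and 5345 in the hypertrophic layer. The flat arrays lay below the other 6, and the round and hypertrophic arrays overlapped. The hypertrophic layer exceeded the flat layer by 0.42 ± 0.11 (limma, adjusted p = 0.0448), and flat minus round was -0.37 ± 0.11 (adjusted p = 0.058). The call for hypertrophic minus flat held in 8 of 18 alternatives. It was lost without the litter block (0.189), with no mean-variance trend (0.152) and with no filter on low values (0.0674). It was also lost when round 2 (0.0659) was left out, as with flat 1, 2 or 3 (0.171, 0.14 and 0.0782) or hypertrophic 1, 2 or 3 (0.14, 0.19 and 0.189). Flat minus round was past the threshold with quantile normalization (adjusted p = 0.043) and with 1 probe set a gene (0.0444). The other 4 tested Mef2a probe sets were past it in no contrast, with differences of -0.43 to -0.14 between flat and round and of 0.25 to 0.52 between hypertrophic and flat, all 5 of the same sign in each. Without the round array of litter 1, flat minus round for 1442623_at was -0.97 and past the threshold (adjusted p = 0.0307), against -0.37 ± 0.37 with all arrays. The sixth, 1425426_a_at, ranged from 9.33 to 139 and was not tested.

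Mef2d (chr3:88141941-88172091) was past the threshold on 1 of its 3 probe sets, in 1 contrast. Its brightest probe set (1434487_at) had 2057, 2244 and 2319 in the round, 2050.0, 2298 and 2342 in the flat and 2406, 2333 and 2686 in the hypertrophic layer, with differences of 0.01 ± 0.12 (flat over round), 0.15 ± 0.12 (hypertrophic over flat) and 0.16 ± 0.12 (hypertrophic over round; limma, adjusted p = 0.962, 0.561 and 0.39). The hypertrophic arrays lay above the round arrays by a small margin and overlapped with the flat ones. Probe set 1437300_at had 378, 365 and 419 in the round, 485, 536 and 753 in the flat and 679, 646 and 556 in the hypertrophic layer. All round arrays were the lowest. Its difference between hypertrophic and round was 0.66 ± 0.20 (adjusted p = 0.0334), a call held in 9 of 17 alternatives. It was lost without the litter block (0.055), with no mean-variance trend (0.0525) and with no filter on low values (0.0545). It was also lost without round 1, 2 or 3 (0.0502, 0.11 and 0.0823) and without hypertrophic 1 or 2 (0.172 and 0.153). The third, 1421388_at, was past the threshold in no contrast.

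The difference between family members was tested on log2 ratios of their brightest probe sets, a test chosen after the data were seen. The ratio of Mef2c to Mef2a was 0.19 ± 0.19 in round, 1.61 ± 0.18 in flat and 1.13 ± 0.16 in hypertrophic layers (SD, n = 3), and that of Mef2c to Mef2d was 1.24 ± 0.18, 2.29 ± 0.29 and 2.08 ± 0.21 in the same order. Only the change of a ratio between layers can be read, not its level, since probes differ in brightness. Layers were permuted within litters over all 216 arrangements. The exact permutation p was 0.0278 for Mef2c over Mef2a, the smallest this design can give, and 0.0556 for Mef2c over Mef2d. Adjusted over the 3 ratios tested, Hdac4 over Hdac5 included, these exact p-values were 0.0834, 0.0834 and 0.222.

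Zfp521 (chr18:13687013-13972749) declined toward the hypertrophic layer on both probe sets. The brighter (1451332_at) had 3937, 7603 and 6128 in the round, 4004, 4783 and 3949 in the flat and 2076, 2438 and 2370.3 in the hypertrophic layer. The hypertrophic arrays lay below all others, while round and flat overlapped through the round array of litter 1. It fell by 0.88 ± 0.15 in the hypertrophic against the flat layer, 1.84-fold (limma, adjusted p = 0.00437), while hypertrophic minus round was -1.30 ± 0.15, a 2.47-fold fall (adjusted p = 8.48e-05). Flat minus round was -0.42 ± 0.15 (adjusted p = 0.0974), and -0.63 without the round array of litter 1 (adjusted p = 0.00518).

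The other Zfp521 probe set (1439909_at) had 1052, 1745 and 1749 in the round, 853, 1095 and 1008 in the flat and 483, 591 and 529 in the hypertrophic layer. The hypertrophic arrays were lowest, and round and flat overlapped. It was lower in the hypertrophic than in the flat layer (-0.85 ± 0.16, limma, adjusted p = 0.00708) and than in the round layer (-1.43 ± 0.16, adjusted p = 5.72e-05). Here flat minus round was also past the threshold (-0.58 ± 0.16, adjusted p = 0.0344), in 8 of 17 alternatives. That call was lost without the litter block (0.152) and without the mean-variance trend (0.0725). It was also lost without round 2 or 3 (0.148 and 0.164), flat 1, 2 or 3 (0.0799, 0.103 and 0.124) or hypertrophic 2 or 3 (0.0565 and 0.0532). The call against the flat layer was lost without the litter block (0.0546) and without flat 1 (0.0529) or hypertrophic 2 or 3 (0.051 and 0.0565). Perichondrium, fibroblast and tendon markers were lower in 4 of 7 and higher in 0 between hypertrophic and flat. Between hypertrophic and round 5 were lower and 1, Dcn, was higher. Their sum was 162993 to 187020.0 on round, 126819 to 188207 on flat and 115746 to 132509 on hypertrophic arrays. The largest part of it was Col1a2, past the threshold in no contrast, with means of 74732, 87920 and 73539 in the same order. The dimmest marker, the tendon factor Scx, had layer means of 224, 171 and 86.2. Their part in the decline was not tested.

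The closest patterns to Zfp521 (1451332_at) over the 9 arrays were those of Rgs11 (Pearson's r 0.976), a regulator of G protein signalling, the receptor Ror1 (0.973), Lhfp (0.968), the growth factor Tgfb3 (0.964) and Sertad4 (0.964). Each had its highest mean in the round and its lowest in the hypertrophic layer.

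Most other genes of PTHrP and cyclic AMP signalling were not past the threshold. Of 33 tested genes of 38 listed, 2 were higher and 4 lower between flat and round, 1 higher and 0 lower between hypertrophic and flat, and 2 higher and 2 lower between hypertrophic and round. By 1 probe set a gene, 14.8% of the 11313 tested genes were past the threshold between flat and round (7.29% higher, 7.48% lower), 9.38% between hypertrophic and flat (5.03% higher, 4.35% lower) and 22.8% between hypertrophic and round (11.3% higher, 11.6% lower). The median log2 differences were -0.02, -0.00 and -0.08, against -0.01, -0.00 and 0.01 over all tested genes. In the flat layer Prkaca, a catalytic subunit of protein kinase A, rose by 0.94 ± 0.22 over the round layer (limma, adjusted p = 0.0164), and Pkia, an inhibitor of that kinase, by 1.43 ± 0.31 (adjusted p = 0.00983). Both are abundant in muscle, whose markers were also higher in this contrast, and the part of muscle in these 2 differences was not tested. The adenylyl cyclase Adcy4 was lower there (-0.94 ± 0.19), as was the phosphodiesterase Pde10a (-0.94 ± 0.26). Adcy3 was higher in the hypertrophic than in the flat (0.70 ± 0.14) and the round layer (0.50 ± 0.14). The phosphodiesterase Pde8a was higher (1.15 ± 0.24) and the catalytic subunit Prkacb lower (-0.48 ± 0.13) in the hypertrophic than in the round layer. Pthlh, which encodes PTHrP, is not among the genes named in the annotation used here, and Pth2r lay below the filter.

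Of the partners of the class IIa deacetylases, with 26 tested of 29 listed, 2 were higher and 4 lower between flat and round, 0 higher and 1 lower between hypertrophic and flat, and 1 higher and 6 lower between hypertrophic and round, with medians of -0.01, -0.00 and -0.06. Prkd1, protein kinase D, which phosphorylates class IIa deacetylases for export from the nucleus, averaged 3440 ± 518 in round, 1244 ± 180 in flat and 866 ± 91.0 in hypertrophic layers (SD, n = 3). It fell by 1.45 ± 0.14 in the flat against the round layer (limma, adjusted p = 5.39e-05), and hypertrophic minus round was -1.95 ± 0.14 (adjusted p = 1.64e-06). Camk4, a calcium-dependent kinase, was lower in the hypertrophic than in the flat (-1.95 ± 0.18) and the round layer (-1.41 ± 0.18). Between flat and round the related kinase Prkd2 was lower (-0.77 ± 0.18), and Camk2a and Camk2b were higher (0.77 ± 0.21 and 1.18 ± 0.35). In that contrast 19 of 20 muscle markers were also higher, and the part of muscle was not tested. Camk2b varied widely on flat arrays (505 ± 363, against 180 ± 33.1 on round arrays) and was just past the threshold (adjusted p = 0.0497). Hdac9, another class IIa deacetylase (-1.05 ± 0.31), and Sik2, a relative of Sik3 (-0.62 ± 0.14), were lower in the hypertrophic than in the round layer.

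Factors and targets around Mef2 and Zfp521 split. Of 16 tested of 24, 6 were higher and 3 lower between flat and round, 4 higher and 1 lower between hypertrophic and flat, and 6 higher and 6 lower between hypertrophic and round, with medians of -0.35, 0.05 and -0.13. Several of these genes were known to mark these layers when the list was written. Col10a1, the collagen of hypertrophic cells and a target of Mef2c, averaged 139 ± 111 in round, 664 ± 239 in flat and 11857 ± 918 in hypertrophic layers (SD, n = 3). It rose by 4.16 ± 0.36 in the hypertrophic over the flat layer (limma, adjusted p = 7.28e-05), where 0 of 5 Mef2c probe sets were past the threshold. Of 20 muscle markers 16 were lower and 0 higher there, and the part of muscle in the Mef2c values was not tested. Runx3, a Runx factor of cartilage and bone, rose by 2.56 ± 0.26 in the flat over the round layer and Dlx5 by 2.81 ± 0.29. Alpl and the bone sialoprotein gene Ibsp rose in all contrasts, by 3.52 ± 0.16 and 2.59 ± 0.26 between flat and round. The collagenase Mmp13 rose by 1.83 ± 0.20 in the hypertrophic over the flat layer. Sox9, the chondrocyte factor, was lower in the hypertrophic than in the flat layer (-0.998 ± 0.21, adjusted p = 0.0116). Ihh, Mef2b and Nkx3-2 lay below the filter, and Runx2 is not among the genes named here.

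**Figure D5:**
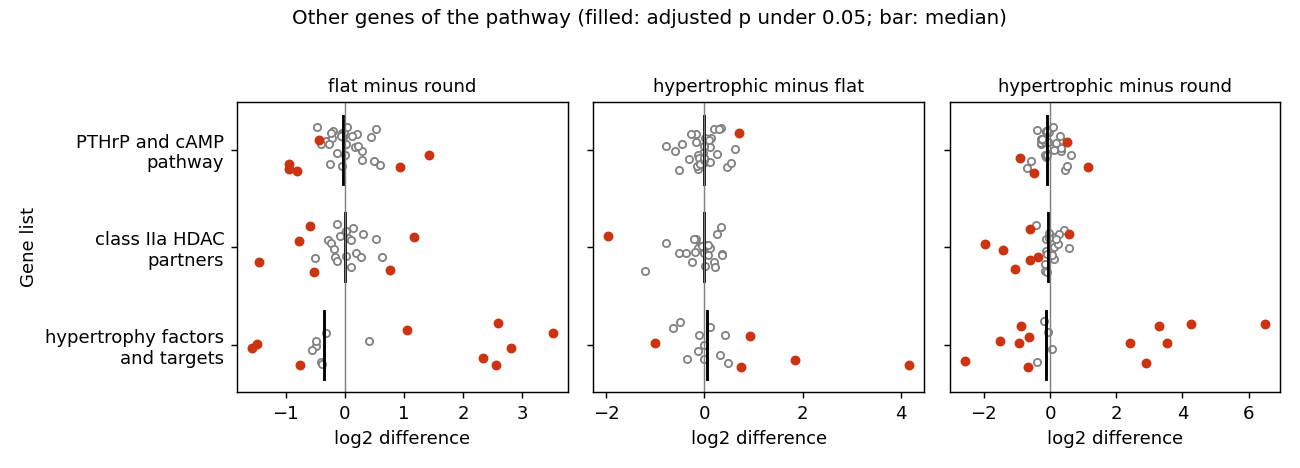
Log2 differences of the tested genes of 3 lists (33, 26 and 16 genes, 1 probe set a gene) in the 3 contrasts, filled where the adjusted p was under 0.05, with a bar at the median of each list. Most genes of the first 2 lists lie near 0, and the largest rise is 6.51 for Col10a1 between hypertrophic and round.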

How the data were processed

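Messenger RNA of the 9 samples was measured on Affymetrix mouse genome arrays. The authors deposited a signal intensity per probe set, made with MAS5 in Affymetrix Expression Console per the submitters' processing notes (no version stated there). The deposited intensity columns share a mean of 500.003 after 2% is trimmed at either end, so the arrays were already scaled.

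Probe sets were named from the platform annotation (34945 of 45037 non-control probe sets had 1 gene, 34741 of these matched by gene identifier to GRCm38.p6 RefSeq genes). Signals were taken as log2(signal + 25.8), the pseudocount being the 20th percentile of all values, so that differences of dim probe sets are understated. Probe sets with a mean above the median (7.21 on that scale) were tested together, 22518 in all.

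Layers were compared with limma 3.58.1 in R 4.3.3 with litter as a fixed block and a mean-variance trend, and the fit was tested on simulated data. The series' text makes the litters the replicates, and that equal replicate numbers mark the same litter was inferred. Deviations from layer means correlated with r of 0.127 to 0.453 in the 9 pairs of arrays of equal number and -0.398 to 0.0546 in the 18 other pairs between layers, ranges that depend on each other. All 9 genes were named, and up to 4 called genes a list and contrast by size. Falling genes around Mef2 and Zfp521 were also named beyond these. The members and lists were chosen with earlier results of these data known.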

Additional observations from a re-analysis of the deposited data

How the results depend on the processing

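Of the 32 member differences past the threshold, 0 changed sign in any of the 18 alternatives, and in 556 refits 77 lost the call. The cause of the lost calls was not tested. Calls between the hypertrophic and flat layers depended most on the processing. Of 8 member probe sets, 4 were past the threshold without a mean-variance trend and 3 with no replicate block. Without single arrays the count was 1 to 8 there, 7 to 12 between flat and round and 12 to 16 between hypertrophic and round. Leaving out the flat array of litter 1 or the hypertrophic array of litter 2 gave the lowest count of 1. With 1 probe set a gene 4, 4 and 6 members were counted for flat over round, hypertrophic over flat and hypertrophic over round, fewer being tested.

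Over all probe sets, 2808, 1678 and 4601 were past the threshold in these contrasts, 1266, 720 and 2852 with no replicate block, and 910 between hypertrophic and flat without a trend. With 1 probe set a gene 2840 were past it between hypertrophic and round. Without single arrays the counts were 1735 to 2901, 758 to 2491 and 2738 to 4680. The 3 pathway lists had 21, 7 and 23 genes past it, 12 and 4 with no replicate block in the first 2 contrasts, and 11 to 22, 3 to 11 and 15 to 23 without single arrays. The block changed no call of Pth1r against the round layer or of Mef2c.

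Every sign change fell on a difference that was not past the threshold. For the probe set with the highest mean of each gene, these were small. With arrays centred on their medians, flat minus round was -0.045 for Mef2d 1434487_at and -0.032 for Sik3 1455437_at, and hypertrophic minus flat was 0.011 for Mef2c 1421027_a_at and 0.071 for Sik3. With quantile normalization flat minus round was -0.059 for Gnas 1450186_s_at. Leaving out round 1 and flat 3 together, chosen after seeing the data, gave -0.0021 (flat minus round) and -0.039 (hypertrophic minus round) for Sik3. Without single arrays, flat minus round ranged over -0.019 to 0.16 for Gnas 1450186_s_at, -0.0226 to 0.0388 for Mef2d and -0.078 to 0.081 for Sik3. Hypertrophic minus flat ranged over -0.072 to 0.076 for Hdac5 and -0.054 to 0.11 for Sik3, and hypertrophic minus round over -0.0026 to 0.094 for Mef2a 1427185_at and -0.047 to 0.068 for Sik3. Another 37 fell on dimmer member probe sets, some of them large. Without round 2, Mef2d 1421388_at was -0.46 for flat minus round and -0.34 for hypertrophic minus round (0.17 and 0.29 with all arrays), and without flat 1 it was -0.61 for hypertrophic minus flat (0.12 with all arrays). Without round 1, Mef2a 1442623_at was -0.46 for hypertrophic minus round (0.15 with all arrays). Signal near background limits the 4 untested probe sets.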
